A study of Mus musculus with 9 samples.

Results

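The genes described here encode 7 RNA-binding factors that shorten the life of cytokine messenger RNAs. They are Zfp36, Zfp36l1 and Zfp36l2 (the tristetraprolin family), Zc3h12a and Zc3h12c (Regnase-1 and Regnase-3), and Rc3h1 and Rc3h2 (Roquin-1 and Roquin-2). They were taken by symbol from a deposited table of 26146 genes, where each had 1 row, and all 7 passed the filter on low values that left 11536 genes for testing. RNA was measured by poly(A) sequencing in 9 libraries of RAW264.7, an established macrophage line of the mouse. Untreated cells, called Normal, gave 3 libraries, LPS-treated cells gave 3, and cells treated with both LPS and an extract used in Traditional Chinese Medicine gave 3. LPS (lipopolysaccharide) is a bacterial cell wall component that macrophages sense through a Toll-like receptor. The labels give no name, dose or exposure time for the extract, no dose or time for LPS, and do not say whether replicates were separate cultures, so p-values measure the spread between these libraries, which may be technical.

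The labels contradict each other on the treated groups. Samples titled LPS are tied to table columns called ET while their library names begin with M, and samples titled LPS+Extract are tied to columns called M while their library names begin with ET. The groups carry their column names below. Comparisons of ET or M with Normal are comparisons of LPS-treated with untreated cells under both readings. For M against ET, which side had the extract cannot be told apart from the labels, and only the direction M minus ET is given.

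Members of the tristetraprolin family hold a pair of CCCH zinc fingers that grip AU-rich elements in the 3′ untranslated region (3′ UTR) of short-lived messages, and they recruit the CCR4-NOT complex, which removes the poly(A) tail. Regnase-1 is an endonuclease that cuts messages such as that of Il6 at stem-loops in the 3′ UTR, and Regnase-3 is a relative that macrophages express. Roquin proteins bind similar stem-loops and also recruit CCR4-NOT. In macrophages these factors form part of the feedback that ends cytokine production, and several of them control their own transcripts.

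Sequence is shown first for a feature that several of these transcripts share with some of the messages they act on. It was found in 8 of the 23 tested target transcripts listed below. The nonamer UUAUUUAUU, a core site of tristetraprolin-type zinc fingers, was searched in the 3′ UTR of 1 coding transcript per gene (GENCODE M21, GRCm38). It was found in 5 of the 7 genes, in all 3 of the Zfp36 family and in both Rc3h genes, and not in Zc3h12a or Zc3h12c. Of 9936 tested genes with an annotated 3′ UTR, 715 (7.20%) held it, and of the 5486 whose 3′ UTR was within the range of these 7 (774 to 7181 bases), 575 did (10.5%). Each of the 5 held it 1 time. The range did not match length gene by gene, and the median 3′ UTR within it was 1759 bases. Only 0.775% of tested genes had a longer 3′ UTR than Rc3h1 (7181 bases), and 2.86% a longer one than Rc3h2 (5160). The part of length in these matches was not tested. The sites follow as RNA, 5′ to 3′, with the nonamer in capitals and 10 bases on each side, and with 1 of the 5 sites of Tnf, a classical target, for comparison.
Zfp36: uaugacgacuUUAUUUAUUguauuaagau
Zfp36l1: aacuguuggaUUAUUUAUUuuagaaauuc
Zfp36l2: acuauuuaacUUAUUUAUUaucuugugaa
Rc3h1: acuuuacucaUUAUUUAUUgagaugagga
Rc3h2: caaagacauuUUAUUUAUUuuacucugua
Tnf: uuauuauuuaUUAUUUAUUuauuauuuau

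The nonamers lay at chr7:28376961-28376969 (Zfp36, minus strand), chr12:80108177-80108185 (Zfp36l1, minus), chr17:84184924-84184932 (Zfp36l2, minus), chr1:160970053-160970061 (Rc3h1, plus), chr2:37373297-37373305 (Rc3h2, minus) and chr17:35199692-35199700 (Tnf, minus). In Zfp36 the site began 589 bases after the stop codon in a 3′ UTR of 774 bases, and in Rc3h1 2256 bases after it in one of 7181 bases. In Tnf the flanks are themselves AU-rich repeats, while the flanks in the 5 decay factor genes hold no further overlapping nonamer. The shorter AU-rich pentamer AUUUA occurred in all 7 genes, from 3 times in Zfp36 and Zc3h12a to 25 times in Rc3h2. Its density was 3.66 per kilobase over the 7 genes, 1.84 over all tested genes with a 3′ UTR and 4.76 over 23 known target transcripts. A match is a stretch of letters, and binding was not measured.

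All 7 positions in the table equalled those of GENCODE M21 on GRCm38. Zfp36 (ENSMUSG00000044786) lay at chr7:28376784-28380253, Zfp36l1 (ENSMUSG00000021127) at chr12:80107754-80113013 and Zfp36l2 (ENSMUSG00000045817) at chr17:84183931-84187947, all on the minus strand. Zc3h12a (ENSMUSG00000042677) lay at chr4:125118423-125127840 and Zc3h12c (ENSMUSG00000035164) at chr9:52111344-52168572, both on the minus strand. Rc3h1 (ENSMUSG00000040423) lay at chr1:160906418-160974978 on the plus strand and Rc3h2 (ENSMUSG00000075376) at chr2:37370069-37422903 on the minus strand. Rows overlapping them held few counts: 8 to 21 per library for Gm44710 on the opposite strand of Zfp36, 0 to 12 for Gm36279 opposite Zfp36l2, and at most 6 for 3 predicted genes within Rc3h1. The labels do not state a strand setting, so opposite-strand reads within the genes' own rows cannot be told apart.

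Total counts per library were 55039858 to 76242718, and the member with the fewest counts in any library, Zc3h12a in a Normal library, still had 656. Macrophage markers were present in all groups, with a summed CPM of 4614 to 4840 (Normal), 5551 to 5866 (ET) and 5407 to 5580 (M), although Mertk was at 0 in 8 of 9 libraries and Aif1 reached at most 1.10 CPM. The sums hold changes in both directions: of 8 tested markers 4 were higher and 3 lower in ET against Normal, and 4 and 4 in M against Normal. The LPS co-receptor Cd14 rose from 360 ± 8.14 CPM (Normal) to 1812 ± 78.5 (ET) and 1922 ± 56.5 (M), while the growth factor receptor gene Csf1r fell from 1915 ± 50.2 to 1209 ± 6.17 and 1120 ± 17.6, and Lyz2, the lysozyme of macrophages, from 1355 ± 58.6 to 961 ± 30.5 and 796 ± 15.5. CPM is the count scaled to the library's total over the 11536 tested genes and to its TMM factor. Of the other cell types' lists, lymphocyte markers summed to at most 2.20 CPM, chiefly Cd79a (Cd3e, Cd3g, Ms4a1 and Nkg7 had no row and were not analysed here). Granulocyte markers summed to at most 0.126 CPM in Normal and to 28.7 to 36.2 in the treated libraries, chiefly S100a8 (Ly6g had no row). Epithelial and endothelial markers summed to 4.92 to 6.19 CPM in Normal and 18.1 to 23.7 in the treated libraries, chiefly Pecam1 (Krt8, Krt18 and Cdh1 had no row). Fibroblast markers, chiefly Lum, summed to at most 0.373 CPM (Normal), 8.97 to 10.8 (ET) and 12.8 to 18.4 (M). The part of these markers in the results below was not tested, and in bulk RNA fewer cells of a kind and less RNA per cell cannot be told apart. ET replicate 3 stood apart from the other ET libraries: the chi-square per gene was 26.2 and 21.4 against them and 14.5 between them.

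With LPS the set of decay factors changed in composition. Zfp36, Zc3h12a and Zc3h12c rose 4.85-fold to 9.65-fold, Rc3h1 rose slightly, Zfp36l1 and Zfp36l2 fell, and Rc3h2 passed the test in neither treated group. In ET against Normal 4 of the 7 genes were called higher, where 35.0% of all tested genes were, and 2 were called lower, where 35.2% were. In M against Normal the counts were again 4 higher, beside 35.5% of all tested genes, and 2 lower, beside 34.5%. Of all tested genes 70.2% were called in one direction or the other in ET against Normal and 70.0% in M, so the count of called members is no result about them. The size of the 3 large rises can be set beside all genes. A share of 3.55% of tested genes changed by more than Zc3h12a in ET against Normal, 4.98% by more than Zfp36 and 5.33% by more than Zc3h12c (M against Normal: 3.37%, 4.82% and 4.96%). The median absolute log2 change of all tested genes was 0.36 in both comparisons. Calls are from edgeR's quasi-likelihood test, with p-values adjusted by Benjamini-Hochberg over all 11536 genes, at 0.05. Both comparisons use the same 3 Normal libraries.

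**Figure D1:**
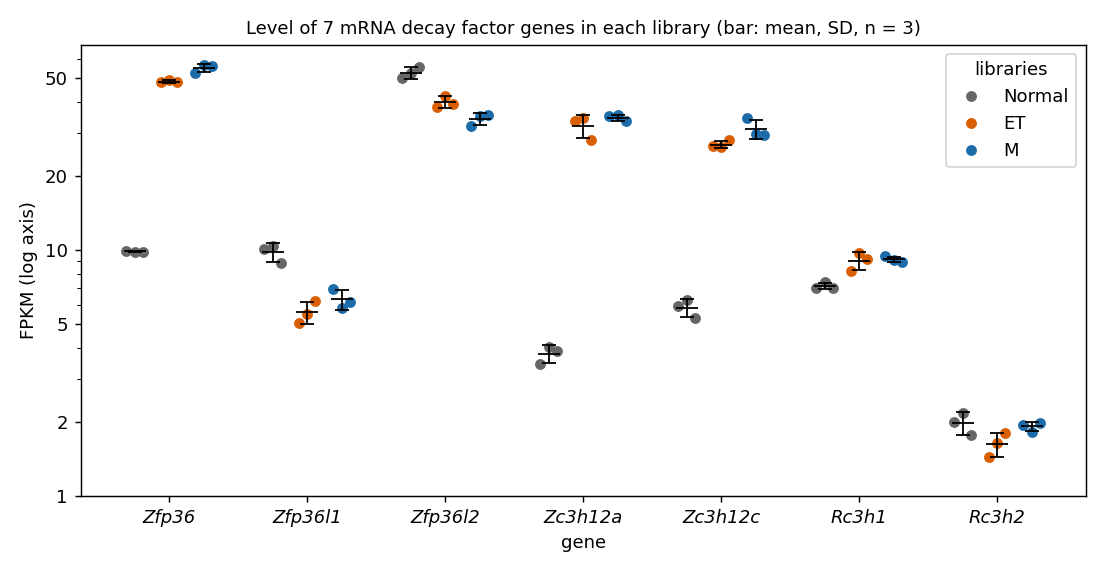
FPKM on a log axis for the 7 genes, with 1 point per library and the mean and SD of 3 libraries per group. Zfp36, Zc3h12a and Zc3h12c sit far above Normal in every ET and M library, Zfp36l1 and Zfp36l2 sit below it, and the Rc3h2 points of the 3 groups lie within 1.44 to 2.18 FPKM.

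Zfp36 encodes tristetraprolin itself, the founding member whose loss in mice causes Tnf-driven inflammation. Its FPKM (fragments scaled to gene length and library total by the authors) was 9.91, 9.87 and 9.85 in the Normal libraries, 48.1, 49.1 and 48.1 in ET, and 52.6, 56.3 and 55.8 in M. The 3 groups did not overlap, and its Normal libraries had the smallest relative SD of any group among the 7 genes (0.707% of the mean CPM). Its mean CPM was 35.5 ± 0.251 (Normal), 183 ± 1.57 (ET) and 209 ± 7.05 (M) (SD, n = 3 here and below). The log2 change was 2.37 (SE 0.038, adjusted p 4.63e-14) in ET and 2.56 (SE 0.038, adjusted p 2.53e-14) in M, or 5.16-fold and 5.90-fold.

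Zfp36l1, a paralog that is also known for acting on cell-cycle messages in developing lymphocytes, moved the other way. Its FPKM was 10.1, 10.4 and 8.86 in Normal, 5.08, 5.49 and 6.22 in ET, and 6.98, 5.81 and 6.14 in M. Every treated library lay below every Normal library, and ET and M overlapped. Mean CPM was 30.4 ± 2.63 (Normal), 18.3 ± 1.92 (ET) and 20.8 ± 2.04 (M), a log2 change of -0.73 (SE 0.099, adjusted p 2.57e-05) and -0.55 (SE 0.099, adjusted p 0.000294). These are 1.66-fold and 1.46-fold falls.

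Zfp36l2, the paralog needed for blood stem cell upkeep, was the most abundant of the 7 genes in untreated cells. Its FPKM was 49.9, 52.4 and 55.6 in Normal, 38.2, 42.4 and 39.3 in ET, and 31.9, 35.2 and 35.3 in M. The 3 groups did not overlap, in the order Normal, ET, M. Mean CPM was 192 ± 9.80 (Normal), 154 ± 7.81 (ET) and 132 ± 7.08 (M). The log2 change was -0.32 (SE 0.053, adjusted p 0.000142) in ET and -0.54 (SE 0.053, adjusted p 1.39e-06) in M.

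Zc3h12a encodes Regnase-1, which is held in check by IkappaB kinase-driven degradation and by the protease Malt1, and showed the largest rise of the 7. Its FPKM was 3.45, 4.03 and 3.91 in Normal, 33.6, 34.6 and 28.0 in ET, and 35.0, 35.2 and 33.4 in M. All treated libraries lay far above Normal, and ET replicate 3 was the lowest of the 6. Its 3 group means were 11.3 ± 0.867 CPM (Normal), 101 ± 10.8 (ET) and 109 ± 3.55 (M). The log2 change was 3.15 (SE 0.082, adjusted p 2.86e-12) and 3.27 (SE 0.082, adjusted p 2.01e-12), or 8.88-fold and 9.65-fold.

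Zc3h12c encodes Regnase-3, a related nuclease found in macrophages. Its FPKM was 5.93, 6.27 and 5.30 in Normal, 26.4, 26.2 and 27.9 in ET, and 34.4, 29.5 and 29.5 in M. No groups overlapped, and M replicate 1 was the highest library. In CPM the means were 41.3 ± 3.53 (Normal), 201 ± 7.53 (ET) and 234 ± 22.2 (M). The log2 change was 2.28 (SE 0.074, adjusted p 2.48e-11) and 2.50 (SE 0.074, adjusted p 1.01e-11), or 4.85-fold and 5.66-fold.

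Rc3h1 encodes Roquin-1, the stem-loop binder whose point mutation causes the autoimmunity of sanroque mice. Its FPKM was 7.03, 7.41 and 7.01 in Normal, 8.26, 9.75 and 9.21 in ET, and 9.44, 9.10 and 8.97 in M. The treated libraries lay above the Normal ones, and ET and M overlapped. It rose from 84.6 ± 2.57 CPM to 113 ± 9.04 and 115 ± 3.49, a log2 change of 0.42 (SE 0.054, adjusted p 1.75e-05) in ET and 0.45 (SE 0.054, adjusted p 9.83e-06) in M. The change was near the middle of all tested genes in size, with 44.6% and 41.6% of them changing by more.

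Rc3h2, which encodes the partly redundant paralog Roquin-2, passed the test in neither comparison. Its FPKM was 2.01, 2.18 and 1.77 in Normal, 1.44, 1.65 and 1.80 in ET, and 1.95, 1.83 and 1.99 in M. Both treated groups overlapped Normal. The log2 change was -0.21 (SE 0.091, adjusted p 0.0564) in ET and 0.04 (SE 0.091, adjusted p 0.712) in M. The first lay close to the threshold: it was called lower in 7 of 19 alternatives, among them total counts without TMM factors (adjusted p 0.0138), DESeq2 (0.0451) and the fit without Normal replicate 3 (0.0152).

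**Figure D2:**
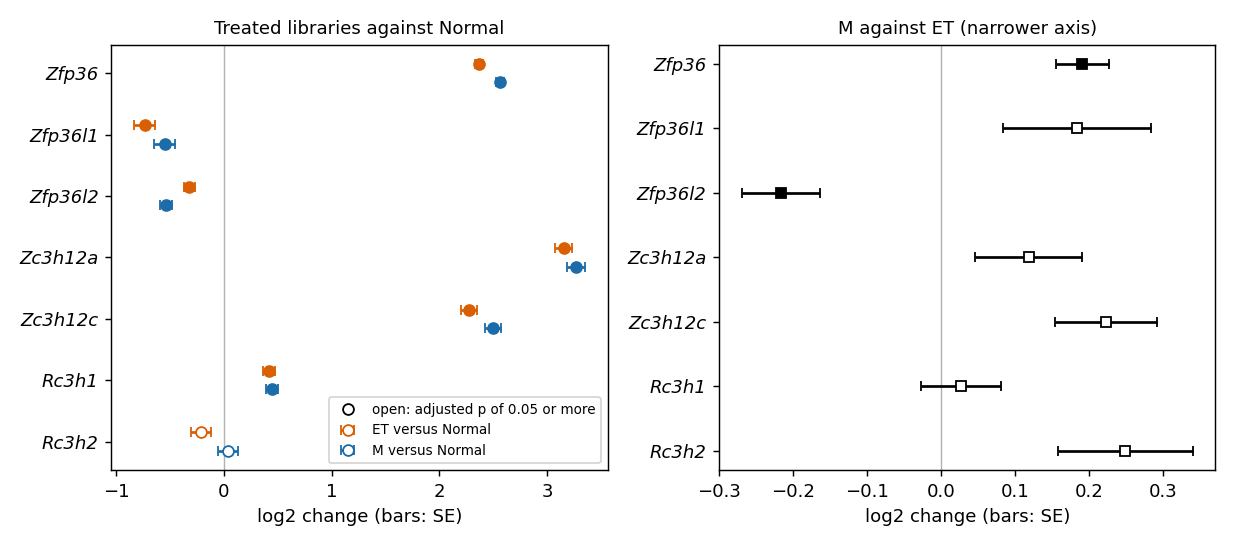
Log2 change with its SE for the 7 genes, from the edgeR fit, with ET and M against Normal on the left and M against ET on a narrower axis on the right; open symbols did not pass the threshold. Zc3h12a has the largest change against Normal (3.15 and 3.27), and between M and ET only Zfp36 (0.19) and Zfp36l2 (-0.22) are filled.

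In each comparison with Normal, 6 of the 7 genes had no overlap between the groups' libraries, where 73.2% of all tested genes had none in ET against Normal and 74.8% in M against Normal. The median log2 change of the 7 was 0.42 in ET and 0.45 in M, and that of all tested genes -0.02 and -0.01.

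On the length-scaled FPKM scale the order of levels changed with LPS. In Normal libraries Zfp36l2 stood first at 52.6 ± 2.85 FPKM, followed by Zfp36 at 9.88 ± 0.0318 and Zfp36l1 at 9.81 ± 0.836, whose libraries overlapped. Rc3h1, Zc3h12c, Zc3h12a and Rc3h2 followed, each apart from the next. In ET the order was Zfp36 (48.4 ± 0.625 FPKM), Zfp36l2 (40.0 ± 2.20), Zc3h12a (32.1 ± 3.51), Zc3h12c (26.9 ± 0.933), Rc3h1 (9.07 ± 0.755), Zfp36l1 (5.60 ± 0.582) and Rc3h2 (1.63 ± 0.180), with no overlap between neighbours. In M Zfp36 again stood first at 54.9 ± 2.03 FPKM, and Zc3h12a (34.5 ± 1.02), Zfp36l2 (34.1 ± 1.94) and Zc3h12c (31.1 ± 2.83) overlapped their neighbours in that order. The place of Rc3h2 depends on the gene length the authors used. The length implied by its counts and FPKM was 2.35 times its longest annotated transcript. That ratio was 1.07 to 1.33 for the other 6 genes, with a median of 1.30 over all tested genes. Within the tristetraprolin family it was 1.33 for Zfp36 and 1.07 for both Zfp36l1 and Zfp36l2. The level of Zfp36 beside Zfp36l1 in Normal thus depends on these lengths too.

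Within the tristetraprolin family the leading member switched. The share of the family's summed FPKM that came from Zfp36 was 13.7% ± 0.464 in Normal, 51.5% ± 1.01 in ET and 57.6% ± 0.246 in M (SD, n = 3). That of Zfp36l2 was 72.7% ± 1.84, 42.5% ± 1.05 and 35.8% ± 0.788, and that of Zfp36l1 13.6% ± 1.45, 5.95% ± 0.605 and 6.64% ± 0.876. The summed level of the 3 genes rose far less than Zfp36 did, from 72.3 ± 2.20 FPKM (Normal) to 94.0 ± 2.89 (ET) and 95.3 ± 3.37 (M). The level of these shares and of the sum depends on the gene lengths the authors used. The implied length was 1.33 times the longest transcript for Zfp36 and 1.07 times for Zfp36l1 and Zfp36l2.

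In the Regnase pair, Zc3h12a made up 39.4% ± 2.84 of the summed FPKM of Zc3h12a and Zc3h12c in Normal, 54.3% ± 3.67 in ET and 52.7% ± 2.03 in M, while the sum of this pair rose from 9.63 ± 0.589 FPKM to 58.9 ± 2.58 and 65.6 ± 3.37. Rc3h1 made up 78.3% ± 1.38 of the Rc3h sum in Normal, 84.8% ± 0.998 in ET and 82.7% ± 0.751 in M, with sums of 9.14 ± 0.419, 10.7 ± 0.889 and 11.1 ± 0.259 FPKM. The level of this share and of the sum depends on the long gene length implied for Rc3h2. For each of the 5 shares (3 in the first family, 1 in each pair), the 6 treated libraries did not overlap the 3 Normal libraries. The differences of treated minus Normal were 40.9 percentage points for Zfp36, -7.30 for Zfp36l1, -33.6 for Zfp36l2, 14.0 for Zc3h12a and 5.42 for Rc3h1. Each gave a two-sided exact permutation p of 0.0238, raw and adjusted over the 5, which is the smallest that 6 against 3 libraries allow. The 6 join 2 different treatments, and 3 libraries of either against 3 Normal ones could not go below 0.1. The 3 shares of the first family are parts of 1 whole and so are not independent tests. All 5 shares are made from the FPKM values described gene by gene above. Their p-values are therefore no evidence separate from those changes.

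**Figure D3:**
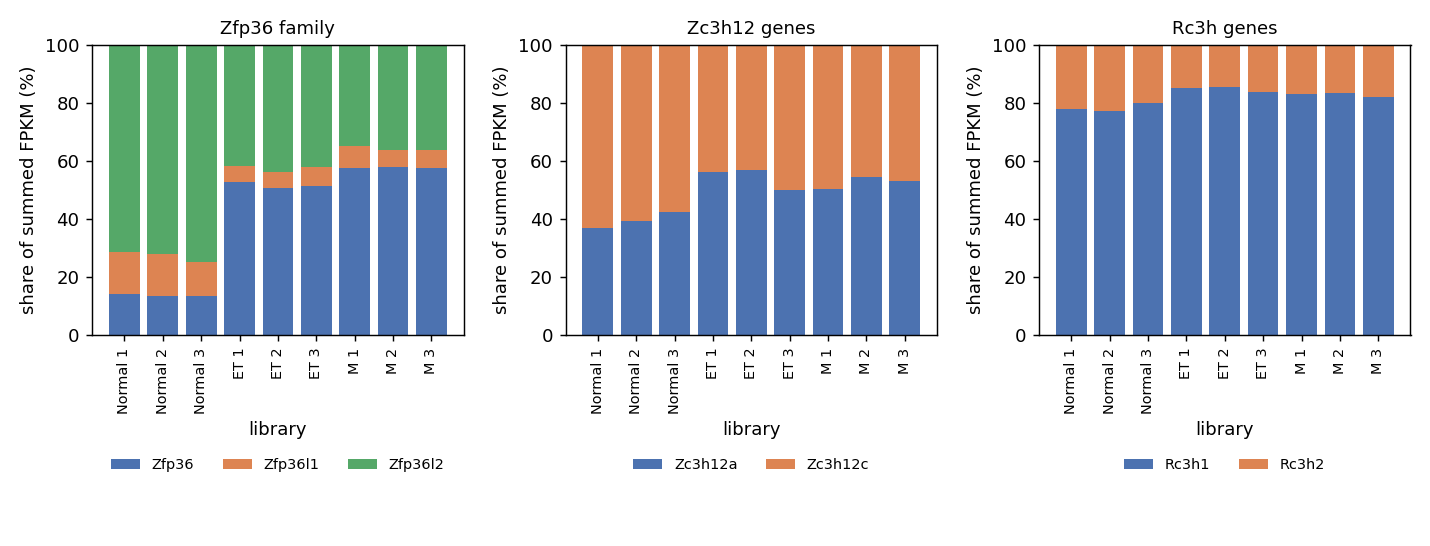
Share of each gene in the summed FPKM of its family, in percent, with 1 stacked bar per library. The Zfp36 segment grows from 13.3% to 14.2% of the bar in Normal to 50.6% to 57.8% in the treated libraries, and the Zfp36l2 segment shrinks from at least 71.3% to at most 43.7%.

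Between M and ET 2 of the 7 genes passed the test. Zfp36 was called higher in M, where 4.97% of all tested genes were called higher, and Zfp36l2 was called lower, where 4.12% were called lower, and the other 5 genes did not pass. Zfp36 was higher by a log2 change of 0.19 (SE 0.035, adjusted p 0.00605), or 1.14-fold, and all 3 M libraries lay above all 3 ET libraries. It passed in each of 19 alternatives, with adjusted p from 0.000299 to 0.0401. For Zfp36l2 the log2 change was -0.22 (SE 0.053, adjusted p 0.0259), or 1.16-fold lower, again without overlap. This call was lost in 6 of 19 alternatives, with adjusted p from 0.00139 to 0.111: without ET replicate 2 (0.111), without M replicate 1 (0.0979), with no filter on low values (0.0670), in both limma fits on log2 FPKM (0.0672 and 0.0856) and at a threshold of 0.01. The log2 change of Zfp36l2 stayed between -0.26 and -0.17 over all of them.

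The other 5 genes gave these values in M against ET. For Zc3h12c the log2 change was 0.22 (SE 0.069, adjusted p 0.0655) and for Rc3h2 0.25 (SE 0.091, adjusted p 0.108), both with every M library above every ET library. Without ET replicate 3 both passed (adjusted p 0.0440 and 0.0337), as they did in DESeq2 (0.0136 and 0.0486), and without Normal replicate 3 Zc3h12c passed (0.0446). Zfp36l1 (0.18, adjusted p 0.276), Zc3h12a (0.12, adjusted p 0.337) and Rc3h1 (0.03, adjusted p 0.803) had overlapping libraries. In all, 4 of the 7 genes had no overlap, where 28.7% of all tested genes had none. The median log2 change of the 7 was 0.18 and that of all tested genes 0.00. The share of Zfp36 in its family was 6.03 percentage points higher in M and that of Zfp36l2 differed by -6.71, each with an exact permutation p of 0.1, the smallest that 3 against 3 libraries allow (0.167 adjusted over 5 shares).

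The start regions were searched for 8 motifs on both strands, in windows of 250 bases before to 50 after each RefSeq start (GRCm38.p6). There were 7 windows for 6 of the genes, 2 of them of Zc3h12c, and none for Zfp36l2. No window held a kappaB match, which 4.53% of 32544 windows of this length held, and this says only that these letters were not there. The Zfp36 window, whose RefSeq start lies inside the gene's span in the table, held a CArG box match (1.64% of windows), an SP1 match GGGCGG that overlaps it (35.9%), an EGR match GCGNGGGCG (5.60%) and a GAS match TTCNNNGAA (8.33%). The AP-1 match TGANTCA (7.79%) occurred in the windows of Rc3h1 and Zfp36l1. The CRE match TGACGTCA (1.80%) and the interferon response element match GAAANNGAAA (3.45%) occurred in none. The upstream 250 bases of the gene with the largest rise, Zc3h12a (chr4:125127882-125128131, minus strand), and of the one with the largest fall, Zfp36l1 (chr12:80113014-80113263, minus strand), are given 5′ to 3′ with motif matches in capitals, all of them SP1 in the first and the AP-1 match in the second.
Zc3h12a: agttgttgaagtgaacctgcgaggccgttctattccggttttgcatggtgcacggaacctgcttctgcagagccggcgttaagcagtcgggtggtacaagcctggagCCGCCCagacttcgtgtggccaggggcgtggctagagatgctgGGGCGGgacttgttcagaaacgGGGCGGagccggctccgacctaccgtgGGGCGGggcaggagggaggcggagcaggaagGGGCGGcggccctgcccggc
Zfp36l1: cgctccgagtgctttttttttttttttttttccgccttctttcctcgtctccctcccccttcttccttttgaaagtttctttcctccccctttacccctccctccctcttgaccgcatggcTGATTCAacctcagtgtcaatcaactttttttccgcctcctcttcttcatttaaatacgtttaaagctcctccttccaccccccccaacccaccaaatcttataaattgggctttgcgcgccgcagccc

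The rest of the decay machinery was read from 6 lists, whose counts stand beside the shares of all tested genes given above: 35.0% higher and 35.2% lower in ET against Normal, 35.5% and 34.5% in M against Normal, and 4.97% and 4.12% in M against ET. The median log2 change of all tested genes was -0.02, -0.01 and 0.00. Of 10 relatives, 6 passed the filter: 2 were higher, 1 lower and 3 not called in ET against Normal, and 2, 2 and 2 in M against Normal. These small counts moved between 1 and 2 higher and 1 and 3 lower in ET over 19 alternatives (2 lower without ET replicate 3), and between 2 and 3 higher and 1 and 2 lower in M (1 lower without Normal replicate 3, M replicate 2 or M replicate 3). Zc3h12d (Regnase-4), a further nuclease of the family, had 1.15 ± 0.364 CPM (Normal), 8.03 ± 1.15 (ET) and 6.34 ± 0.684 (M), a log2 change of 2.82 (SE 0.213) and 2.48 (SE 0.212). It was below 1 FPKM in every Normal library and so passed the filter only through treated ones. Mex3c, an RNA-binding ubiquitin ligase, was higher by 0.16 (SE 0.049) in ET against Normal and Khnyn, a nuclease that works with ZAP, changed by -0.29 (SE 0.069) and was called lower. The untested relatives Zfp36l3, Zc3h12b, Mex3b and Nynrin had at most 61 counts in any library. By edgeR 0 of the 6 were called between M and ET, with 2 at an unadjusted p under 0.05 (Mex3c and N4bp1); DESeq2 called 2 higher, both limma fits 0, and edgeR without ET replicate 3 called 1 higher. N4bp1, which like Regnase has a PIN-like nuclease domain, had 93.4 ± 4.29 CPM in M and 82.1 ± 7.20 in ET (adjusted p 0.0772).

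Among 16 other proteins that bind AU-rich or related elements, 12 were lower and 2 higher in ET against Normal, and 12 lower and 3 higher in M against Normal. Their median log2 change was -0.17 and -0.18. Arid5a, which binds and protects the Il6 message, was one of those called higher in both comparisons. It was not picked by smallest p, unlike the other genes named from this list. It was under 1 FPKM in all Normal libraries (0.504 ± 0.0541 FPKM) and passed the filter through treated ones. Hnrnpd (AUF1), which promotes decay of AU-rich messages, fell from 335 ± 12.6 CPM to 189 ± 10.2 (ET) and 193 ± 3.93 (M), and its relative Hnrnpdl from 192 ± 4.68 to 106 ± 5.00 and 111 ± 2.95. Igf2bp2, which binds and protects messages, rose from 35.5 ± 1.84 CPM to 198 ± 4.81 and 192 ± 3.72, a log2 change of 2.48 (SE 0.045) in ET, beside 2.37 for Zfp36. Between M and ET 0 of the 16 were called by edgeR, DESeq2 or limma, and 1 had an unadjusted edgeR p under 0.05, Tia1 (0.0468, adjusted 0.191). Without ET replicate 3 edgeR called 2 higher.

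The CCR4-NOT complex and other deadenylation genes, the machinery that the tristetraprolin and Roquin proteins recruit, were 20 of 20 tested. In ET against Normal 5 were higher, 12 lower and 3 not called, and in M against Normal 5, 11 and 4, with medians of -0.14 and -0.13. Pan2, the catalytic subunit of a second deadenylase, fell from 42.0 ± 3.51 CPM to 17.5 ± 0.728 (ET) and 17.7 ± 1.39 (M). Btg2, an antiproliferative protein that activates CCR4-NOT, fell from 81.1 ± 3.90 to 37.0 ± 0.811 and 48.6 ± 1.64, while its relative Btg1 rose from 278 ± 9.08 to 393 ± 8.34 and 426 ± 5.20. In M against ET 3 were called higher: Btg2 by 0.39 (SE 0.052, adjusted p 0.000643), Tob2, another antiproliferative protein that binds CCR4-NOT, by 0.20 (adjusted p 0.0189) and Cnot7, a catalytic subunit of CCR4-NOT, by 0.18 (adjusted p 0.0429). Of 19 alternatives the call of Btg2 held in 19, that of Tob2 in 12 and that of Cnot7 in 4. The count of 3 was 6 with DESeq2 and 1 with both limma fits, at a threshold of 0.01, and without ET replicate 1, M replicate 1 or M replicate 3.

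Of 17 decapping and 5′-to-3′ decay genes, 3 were higher, 8 lower and 6 not called in ET against Normal, and 2, 10 and 5 in M. The count of 3 higher in ET was 1 in 9 of 19 alternatives, among them both limma fits and the fits without Normal replicate 2, ET replicate 2 or ET replicate 3 (the last with 10 lower). Dcps, the scavenger decapping enzyme, went from 75.7 ± 2.23 CPM to 52.6 ± 1.94 in ET, Lsm2 from 70.5 ± 2.83 to 49.2 ± 1.93, and Lsm1, which defines the cytoplasmic Lsm ring, from 34.5 ± 0.683 to 46.8 ± 0.754. Lsm7 was the 1 gene called between M and ET, with a log2 change of -0.37 (SE 0.093, adjusted p 0.0291), and its call held in 11 of 19 alternatives; it was lost when either ET replicate 1 or 3 was left out, and likewise M replicate 1 or 2. Of 16 tested exosome and SKI genes, the 3′-to-5′ route, 4 were higher, 6 lower and 6 not called in ET against Normal and 6, 6 and 4 in M, but 2 higher and 8 lower in both with limma. Exosc8 and Exosc5, ring subunits of the exosome, went from 81.9 ± 1.40 to 52.4 ± 1.58 CPM and from 74.0 ± 3.17 to 53.4 ± 0.184 in ET, and Hbs1l, which works with the SKI complex, from 77.4 ± 2.35 to 100.3 ± 3.52. Between M and ET 0 were called by edgeR, DESeq2 or limma, and 2 had an unadjusted edgeR p under 0.05, Skiv2l (0.0146, adjusted 0.0957) and Ttc37 (0.0316, adjusted 0.152), both parts of the SKI complex. Without ET replicate 3 edgeR called 2 higher.

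**Figure D4:**
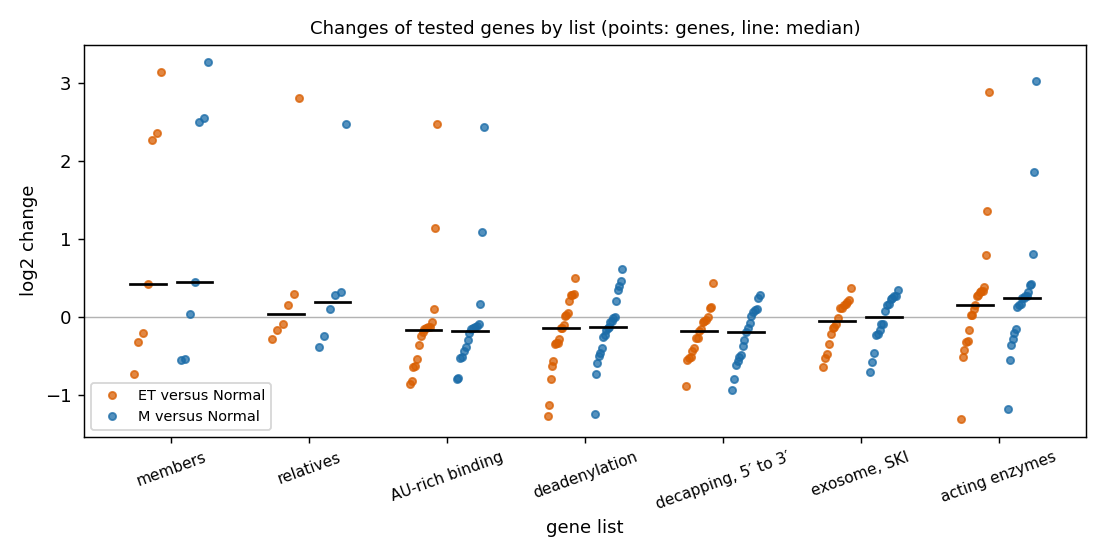
Log2 change of each tested gene against Normal for the 7 genes and 6 lists of related genes, with 1 point per gene and a line at the median. Zfp36, Zc3h12a and Zc3h12c lie at 2.28 to 3.27, and of the listed genes Zc3h12d, Igf2bp2 and Dusp1 exceed 2 in both comparisons.

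Enzymes and adaptors known to act on these factors or on their regulators moved both ways. Of 19 tested, 11 were higher and 6 lower in ET against Normal, and 13 and 6 in M against Normal, with medians of 0.16 and 0.24. Both limma fits, and edgeR on total counts without TMM factors, called 8 higher and 6 lower in each comparison. Dusp1, the phosphatase that switches off MAP kinase signalling and so limits phosphorylation of tristetraprolin, rose from 4.89 ± 0.201 CPM to 36.4 ± 1.35 (ET) and 40.0 ± 1.75 (M). Mapkapk2, the kinase that phosphorylates tristetraprolin, fell from 921 ± 20.1 to 744 ± 34.8 and 797 ± 14.1 CPM. Irak1, a kinase of the Toll-like receptor pathway that drives Regnase-1 turnover, fell from 149 ± 4.70 to 59.9 ± 2.19 and 65.3 ± 5.56. Ikbke, an IkappaB kinase relative, rose from 23.4 ± 0.673 to 60.3 ± 2.39 and 85.5 ± 1.40, and was 1.42-fold higher in M than in ET (log2 change 0.50, SE 0.048, adjusted p 5.29e-05). Smg1, the kinase of Upf1, a helicase that Regnase-1 works with, was the other of the 2 called between M and ET (0.23, adjusted p 0.0480), and its call held in 5 of 19 alternatives, against 19 of 19 for Ikbke. Smg1 lost it when any library but Normal replicate 2 or ET replicate 3 was left out. Mapkapk2 was named after its values were seen.

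Most transcripts listed as destabilised by these factors were higher in the treated libraries. Of 30 known targets 27 were in the table and 23 were tested. The 4 that did not pass the filter went both ways, with no test: Icos, a T cell co-stimulator, had 1.76 ± 0.138 CPM (Normal), 0.693 ± 0.274 (ET) and 0.537 ± 0.127 (M), and Tnfrsf4 0.573 ± 0.0458, 0.313 ± 0.153 and 0.427 ± 0.223, while Il23a had 0.142 ± 0.160, 1.82 ± 0.413 and 1.85 ± 0.717 and Il12b 0 counts in Normal, 0.285 ± 0.178 CPM in ET and 0.355 ± 0.132 in M. All 23 tested ones were called higher in ET against Normal, and 22 in M against Normal, where Ccnd1 was the exception. This list was chosen with results of these libraries known and is no independent evidence of a direction, and it shares Dusp1 with the enzyme list. The count favours rises, since 13 of the 23 were under 1 FPKM in all Normal libraries and passed the filter through treated libraries, and 4 of them (Csf2, Csf3, Il6 and Lcn2) had 0 counts in all Normal libraries. The median log2 change was 7.06 in ET and 7.26 in M, and both medians include those 13 genes. Setting the 4 genes to a bound of 3 counts per Normal library could not move the medians, since all 4 stayed above them. Ptgs2, the inducible cyclooxygenase, had 1.28 ± 0.125 CPM (Normal), 999.6 ± 72.4 (ET) and 1697 ± 173 (M). Ccl2, a monocyte attractant, went from 0.230 ± 0.0949 to 320.2 ± 15.8 and 288 ± 12.8, and Il1b from 0.499 ± 0.0370 to 404 ± 27.3 and 725 ± 41.3.

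Between M and ET the targets moved in both directions, 7 higher, 3 lower and 13 not called by edgeR, beside 4.97% and 4.12% of all tested genes. DESeq2 called 8 higher and 6 lower, and edgeR without ET replicate 3 called 6 higher and 5 lower. Lif, an interleukin-6 family cytokine, was highest in M at 142 ± 6.65 CPM against 47.0 ± 5.18 in ET (log2 change 1.59, SE 0.090, adjusted p 1.10e-06). Tnfrsf9, a co-stimulatory receptor, had 136 ± 10.9 against 52.2 ± 8.07 (1.39, adjusted p 1.36e-05), and Il1b was 1.80-fold higher. Ptgs2, Il6, Il1a and Csf2 were the others called higher, and of the 10 calls that of Csf2 held in 11 of 19 alternatives, those of Il1a and Ccl3 in 17 and the other 7 in all 19. The 3 lower ones, named after their values were seen, were Tnf (460 ± 27.0 against 589 ± 20.4 CPM, adjusted p 0.00323), Ccl3 (2435 ± 86.9 against 2928 ± 180, adjusted p 0.00912) and Ccnd1 (361 ± 20.5 against 427 ± 7.20, adjusted p 0.00300). Of the 23 tested targets 8 held the nonamer in the 3′ UTR (34.8%), beside 7.20% of tested genes with an annotated 3′ UTR. Tnf held 5, Csf2 and Cxcl2 4 each, Lif and Dusp1 2 each, and Ptgs2, Acod1 and Cebpd 1 each. Among the genes higher in M, Lif, Ptgs2 and Csf2 held it and Il1b, Il6, Il1a and Tnfrsf9 did not, and among those lower in M, Tnf held it and Ccl3 and Ccnd1 did not.

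The genes whose levels ran most like each member over the 9 libraries were found by Pearson's r of log2(CPM + 1). The 9 libraries fall into 3 groups with Normal far from both others, so a high r mainly restates the contrast with Normal, and 1970 genes exceeded 0.95 for Zfp36, 2011 for Zc3h12a and 1908 for Zc3h12c. The closest were Isg15, Col5a3 and Oas3 for Zfp36, Gm12138, Cd14 and S100a11 for Zc3h12a, and Herc6, Pla1a and Atp8b4 for Zc3h12c. Isg15 and Oas3 are interferon-induced antiviral genes, Herc6 is the ligase that attaches Isg15 in mice, and Cd14 is the LPS co-receptor. Among the genes most like Zfp36l1 were Cnot6l and AW549877, with 218 genes over 0.95, and Zfp36l2 ran most like Gna15, Mgat4b and Ttf2, with 156. Cnot6l is a catalytic subunit of CCR4-NOT and had 83.5 ± 4.76 CPM (Normal), 53.8 ± 5.86 (ET) and 58.8 ± 4.60 (M). Rc3h1 ran most like Slc39a7, Pbxip1 and Snx33 (735 genes over 0.95). Rc3h2 had only 5 such genes, led by Zfp626, the exonuclease gene Xrn1 and Gm10557. Xrn1 had 68.7 ± 6.24 CPM (Normal), 61.8 ± 5.25 (ET) and 69.2 ± 3.82 (M).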

How the data were processed

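Poly(A) RNA of 9 RAW264.7 libraries was sequenced. Per the submitters' processing notes, cutadapt 1.9, HISAT2 2.2.1 and StringTie 2.1.6 were used, and DESeq2 and edgeR without stated versions. The deposited counts, whole numbers for each gene in each library, and the deposited FPKM values were both made by the authors, per the file headers. The counting tool, strand setting and genome build are not given in the sources used here. Chromosome, start, end and strand equalled GENCODE M21 (GRCm38) for 22699 of 26146 genes (86.8%). Promoter sequences are from RefSeq (GRCm38.p6) and 3′ UTR sequences from GENCODE M21.

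A column went to the sample whose label names it. The 11536 genes that reached FPKM 1 in 3 or more of 9 libraries were fitted with edgeR 4.0.16 in R 4.3.3, in 1 quasi-likelihood fit of 3 groups with TMM factors and Benjamini-Hochberg adjustment at 0.05. SE is the absolute log2 change over the square root of F. Family shares were tested with exact two-sided permutation tests. The fit was tested on simulated data. Alternatives were relative log expression factors, total counts only, no filter, edgeR's count filter, DESeq2 1.42.0, limma 3.58.1 on log2(FPKM + 1) and log2(FPKM + 0.1), a replicate block, 6 libraries only, a threshold of 0.01 and leaving out each library. Intervals are not given for counts of this depth, and SDs cover the spread of 3 libraries.

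The members and lists were chosen with earlier results of these data known. All 7 members are named. From each of 7 lists the text names up to 3 genes with the smallest p in M against ET and up to 3 in ET against Normal, plus the 3 genes most like each member, of which 1 is not reported here. Genes outside this rule are also named, such as Arid5a, Mapkapk2, cell type markers, untested list genes and the other targets called between M and ET.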

Additional observations from a re-analysis of the deposited data

How the results depend on the processing

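Against Normal, the 6 members that were called kept their direction and call in all 19 alternatives, while Rc3h2 crossed the threshold in 7 of them in ET. Between M and ET the count of members called lower (1) was 0 with no filter on low values, with limma on log2(FPKM + 1), with limma on log2(FPKM + 0.1) and at an adjusted p of 0.01. The count called higher (1) was 3 with DESeq2. Leaving out each library in turn gave 1 to 3 higher and 0 to 1 lower: 2 higher without Normal replicate 3, 3 higher without ET replicate 3, and 0 lower without ET replicate 2 or M replicate 1. The stricter threshold can only lose calls, and for the other settings the cause was not tested. Over all genes, 1048 calls between M and ET became 615 with no filter, 1682 with DESeq2, 643 with limma on log2(FPKM + 0.1), 386 at 0.01, and 536 to 1828 when libraries were left out (1828 without ET replicate 3). Same-numbered libraries did not deviate together (correlations of -0.0929 to 0.0551, and 2 of 9 libraries correlated best with their own number). The labels do not say whether the numbers mark paired cultures, and these few libraries cannot exclude it. With a replicate block the member counts were the same, 4 higher and 2 lower against Normal in both groups and 1 and 1 between M and ET, with 922 calls over all genes. The 5 family shares kept their direction in treated against Normal on CPM and with each library left out. Their exact permutation p (0.0238) is the smallest possible, and without a Normal library the smallest possible is 0.0714, so no call could be made there.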
